A study of Mus musculus with 3 samples.

Results

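The interferon-stimulated genes described here are a list of 37 mouse symbols taken by name, of which 36 were found among the 31053 genes of the count tables. Mx2 is the remaining symbol and was not analysed here. The 3 libraries, NonDiabetic replicates 1, 2 and 3, hold CD45+ stomach cells of C57bl/6 females, sorted after the muscle layer had been digested with collagenase for 2 hours at 37 °C, and were read with 10x Chromium 3′ v3 chemistry. All 3 belong to 1 group with no treatment, the age of the mice is not given in the sources used here, and the comparisons below are between cell classes within libraries. The labels do not say that the replicates are separate mice, and the spread between libraries behind every p-value may therefore be technical.

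Type I and type III interferons are released when a cell senses foreign or misplaced nucleic acid, and type II interferon comes mainly from T and NK cells. Type I and III receptors signal through a complex that includes STAT2 and IRF9 and binds the interferon-stimulated response element in front of target genes, whereas type II interferon acts mainly through the gamma-activated site. The targets include RNA-binding and RNA-degrading effectors, membrane restriction factors, nucleic acid sensors, GTPases, and the regulators that shape the response itself. Resident tissue macrophages are known for a low tonic level of such transcripts in the absence of infection.

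Promoter letters are shown first because the response element is the route by which type I interferon is known to reach these genes. RefSeq promoters of build GRCm38.p6 were matched by symbol for 29 of the 36 members. In the 250 bases before the start, the response element, searched on both strands as GAAA, any 2 bases and GAAA again, was found in 14 of 29 members (48.3%), against 936 of 27025 genes (3.46%). The gamma-activated site, searched as TTCNNNGAA, which reads alike on both strands, was found in 5 of 29 members (17.2%), namely Ifit2, Isg20, Oas1a, Bst2 and Gbp7, against 2197 of 27025 genes (8.13%). A match of these letters is a description and does not show that a factor binds. The stretches below, given 5′ to 3′ on the strand of the gene with response element matches in capitals, lie in front of 5 members on which later results turn, at chr4:156200855-156200916 (minus strand, Isg15), chr19:34640765-34640833 (plus strand, Ifit1), chr19:34583353-34583436 (plus strand, Ifit3), chr19:34607749-34607832 (plus strand, Ifit3b) and chr12:26456543-26456592 (minus strand, Rsad2).
Isg15: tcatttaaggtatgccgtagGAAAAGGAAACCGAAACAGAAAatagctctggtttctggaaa
Ifit1: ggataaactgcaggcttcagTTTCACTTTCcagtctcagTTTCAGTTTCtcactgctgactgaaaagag
Ifit3: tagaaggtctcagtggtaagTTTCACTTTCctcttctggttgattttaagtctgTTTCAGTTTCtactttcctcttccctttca
Ifit3b: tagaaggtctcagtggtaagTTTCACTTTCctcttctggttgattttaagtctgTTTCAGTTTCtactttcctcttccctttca
Rsad2: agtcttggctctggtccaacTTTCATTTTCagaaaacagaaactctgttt
In Isg15, which encodes a ubiquitin-like modifier, 3 matches overlap in 1 run, while Ifit1 and Ifit3, members of a family of RNA-binding effectors, hold separate pairs. The Ifit3 and Ifit3b stretches have the same letters, and over the aligned promoters 188 of 218 bases were identical (86.2%). These 2 genes are near copies, so the split of reads between them is uncertain. The element was also found in front of Oas1a, Oas3, Stat2, Bst2, Trim30a, Gbp2, Gbp3, Gbp7 and Ifi205, whose promoters are not printed.

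Cells with at least 1000 UMIs (unique molecular identifiers, 1 per captured RNA molecule) and at most 15% mitochondrial UMIs numbered 522, 1692 and 1216 in replicates 1, 2 and 3, of 881, 2839 and 2015 barcodes. Replicate 2 was the shallowest, with a median of 5699.5 UMIs per kept cell, against 9182.5 in replicate 1 and 7501.5 in replicate 3, and 515 of its 1154 macrophages held under 2000 UMIs. Cells were assigned by marker genes, among them C1qa, Chil3, Cd209a and Ccr7. The marker levels that follow are thus in part set by the gate and do not test the names. C1qa averaged 4019 CPM (the UMIs of a gene scaled to the usual fixed total per library and class) in Lyve1+ and 3368 CPM in Lyve1- macrophages. Chil3 averaged 609 CPM in monocyte-like cells, Xcr1 271 CPM in cDC1-like cells and Cd209a 1010 CPM in cDC2-like cells. Ccr7 averaged 1082 CPM in migratory DC-like cells and Cd3e 282 CPM in T or NK-like cells. Fibroblast-like cells (63 in all) passed the CD45 sort with Ptprc, the CD45 gene, at 7.5 CPM. Replicates 2 and 3 shared 33 barcodes, 3 of them among kept cells, and replicates 1 and 3 shared 1. Free RNA was gauged from the macrophage gene C1qa, which had a UMI in 15 of 446 ILC2-like cells (3.36%), against 88.0% of macrophages, both at 1000 UMIs per cell. The macrophage gate asks for RNA of C1qa, C1qb and C1qc, so the macrophage share is in part set by it. ILC2-like cells had to show more ILC2 than macrophage markers, so the gate may also lower the ILC2-like share.

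Summed over the 36 members, lymphoid cells carried the least interferon-stimulated RNA, and monocyte-like cells and macrophages the most. T or NK-like cells held 964, 649 and 743 CPM in replicates 1, 2 and 3, and ILC2-like cells, innate lymphocytes marked by Gata3, held 649, 694 and 704 CPM. Lyve1+ macrophages held 2391, 2840 and 2725 CPM, and Lyve1- macrophages held 2053, 2634 and 2539 CPM. No lymphoid library reached the lowest macrophage library, while the ranges of both lymphoid classes overlapped and so did those of both macrophage classes. The monocyte-like cells of replicates 1 and 2 held 3873 and 3140 CPM, above every macrophage library, from 11 and 24 cells. The 5 monocyte-like cells of replicate 3 summed to 12539 CPM, and to 5448 CPM without cells of 8 or more members. Replicate 3 is left out of monocyte means because class means use libraries of at least 10 cells.

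Dendritic cells lay between. The cDC1-like cells of replicates 2 and 3 held 1525 and 2017 CPM, the migratory DC-like cells of those replicates held 1447 and 1923 CPM, and the cDC2-like cells held 1525, 2302 and 1976 CPM in replicates 1, 2 and 3. These 3 dendritic ranges overlapped one another, and cDC2-like cells of replicate 2 also exceeded the Lyve1- macrophages of replicate 1. Mast-like cells held 1476 and 782 CPM in replicates 2 and 3. Fibroblast-like cells held 1257 CPM in replicate 1 and 3540 CPM in replicate 3, the widest spread among classes over libraries of at least 10 cells.

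A single member, Ifitm3, which encodes a membrane protein that blocks viral entry from endosomes, supplied 37.6% of all member UMIs. Bst2, the tetherin gene, supplied 7.37%, Isg15 7.21%, Rsad2 4.95%, Oasl1 4.5%, Parp14 4.2% and Trim30a 3.84%. Without Ifitm3 the order of the class means changed, but not in every library. T or NK-like cells then averaged 765 ± 156 CPM and ILC2-like cells 603 ± 16.1 CPM, against 1827 ± 138 CPM in Lyve1+ and 1637 ± 109 CPM in Lyve1- macrophages (SD, n = 3 each). Monocyte-like cells averaged 1467 ± 581 CPM (SD, n = 2), under both macrophage means and within their own spread of them. By library they held 1878 and 1056 CPM in replicates 1 and 2, against 1658 and 1802 CPM in all macrophages. They were thus still the higher in replicate 1. The 5 monocyte-like cells of replicate 3, left out of the mean, held 7816 CPM. The cDC1-like cells averaged 1527 ± 311 CPM (SD, n = 2), against 866 ± 99.0 CPM in cDC2-like cells (SD, n = 3). By library cDC1-like cells held 1308 and 1747 CPM in replicates 2 and 3, against 977 and 788 CPM in cDC2-like cells. With Ifitm3 counted, cDC2-like cells had the higher mean. They then led in replicate 2 (2302, against 1525 CPM) but not in replicate 3 (1976, against 2017 CPM).

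**Figure D1:**
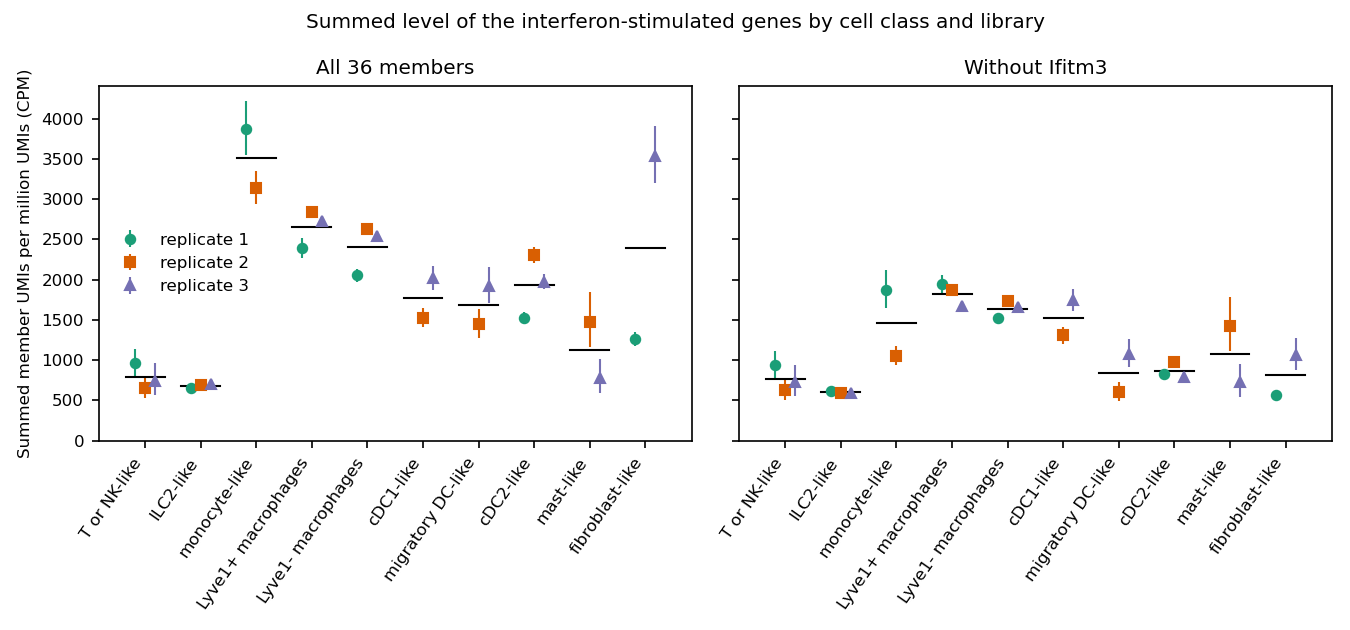
Summed level of the interferon-stimulated genes in CPM (vertical axis, linear from 0) by cell class and replicate, for all 36 members on the left and without Ifitm3 on the right. Points are libraries with 95% counting intervals and bars are means over libraries of at least 10 cells; the lymphoid points sit under all macrophage points, and the monocyte-like lead on the left is absent on the right.

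Members divided among the classes. Of the 36, 10 had their highest mean in monocyte-like cells, 6 in Lyve1+ macrophages, 5 in cDC1-like cells, 4 each in Lyve1- macrophages and fibroblast-like cells, 3 in T or NK-like cells, 2 in migratory DC-like cells and 1 each in mast-like and ILC2-like cells; none peaked in cDC2-like cells. Lyve1+ macrophages led for Rsad2, Oasl1, Ifit1, Oas2, Irf9 and Ifit3b. Lyve1- macrophages led for Ifih1, Oasl2, Rtp4 and Gbp3. The monocyte-like group of 10 held the regulators Irf7 and Usp18, the RNA sensor Dhx58, the synthetases Oas1a and Oas3, and Ifitm3, Parp14, Trim30a, Xaf1 and Zbp1. Irf7, Usp18, Dhx58 and Oas3 rested on 16, 7, 7 and 5 monocyte-like UMIs in 2 libraries. Ifitm3, Parp14, Zbp1 and Oas1a were above macrophages in both libraries, and Irf7, Usp18, Dhx58, Oas3, Trim30a and Xaf1 in 1 of them. Ifi47, an immunity-related GTPase, reached 90.1 ± 3.35 CPM in T or NK-like cells (SD, n = 3), and Herc6, the mouse ligase that attaches ISG15, reached 51.7 ± 6.17 CPM in ILC2-like cells (SD, n = 3). Leading class is read from means only, and many neighbouring means differed by less than their spread.

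**Figure D2:**
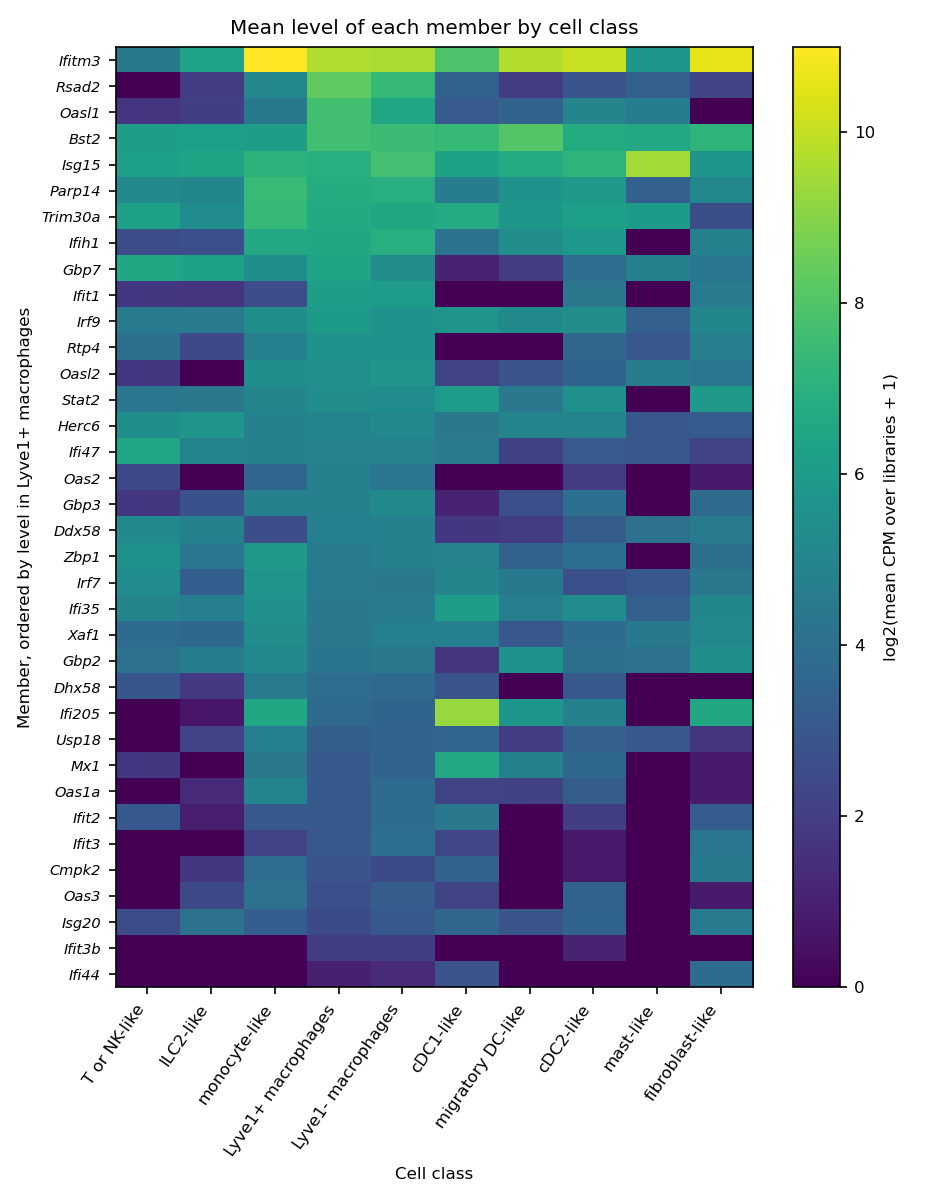
Mean level of each of the 36 members (down the page, ordered by level in Lyve1+ macrophages) in 10 cell classes, as log2(mean CPM + 1). Ifitm3 is bright in monocyte-like cells, macrophages and cDC2-like cells, Ifi205 in cDC1-like cells, and Isg15 in mast-like cells.

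The number of members seen in a single cell gave a second reading, in which Ifitm3 weighs no more than any other member. Each cell was thinned to 1000 UMIs, so that depth was equal. At least 4 members were then seen in 0.885%, 1.12% and 1.29% of ILC2-like cells in replicates 1, 2 and 3, or 5 of 446 cells in all. The same mark was reached by 20 of 212 macrophages of replicate 1 (9.43%), 186 of 1154 of replicate 2 (16.1%) and 87 of 764 of replicate 3 (11.4%), and no ILC2-like library came near any macrophage library. Unthinned, the shares averaged 42.0% in ILC2-like cells, against 69.3% in macrophages.

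Lyve1+ and Lyve1- macrophages did not separate by this count, with 9.20%, 15.9% and 11.4% of Lyve1+ cells and 9.60%, 16.3% and 11.3% of Lyve1- cells having 4 or more members in replicates 1, 2 and 3. Monocyte-like cells reached the mark in 5 of 40 cells. The cDC1-like shares were 3.85% and 9.09% in replicates 2 and 3, and the cDC2-like shares were 1.82%, 8.47% and 1.30% in replicates 1, 2 and 3. Migratory DC-like cells never reached it (0 of 28 cells, a count under which the true share may still be up to 10.7%), and T or NK-like cells did in 1 of 53. Replicate 2 stood highest for macrophages and for cDC2-like cells. Its shallow macrophages of under 2000 UMIs had a mitochondrial share of 7.07% and the mark in 18.3% of cells, and its macrophages of 2000 UMIs or more had the mark in 14.4%, against 8.21% and 11.9% at that depth in replicates 1 and 3. The part of these shallow cells in the replicate 2 share was not tested beyond that split.

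**Figure D3:**
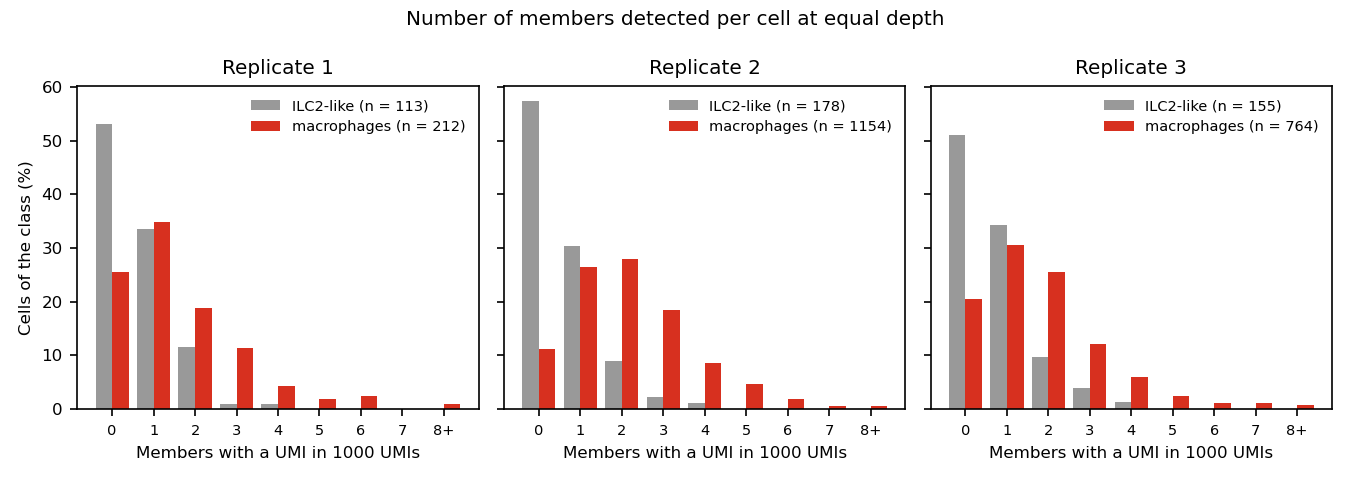
Percentage of cells (vertical axis) by the number of interferon-stimulated genes seen in 1000 UMIs of the cell (horizontal axis, with 8 or more pooled), for ILC2-like cells and macrophages in each replicate. ILC2-like cells pile up at 0 and 1 member, and macrophages reach further to the right, with 80.9% of cells on average having at least 1 member.

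A small number of cells carried many members at once, and a few of these nearly all of them. In 1000 UMIs, 19 cells showed 8 or more members: 3 Lyve1+ macrophages, 12 Lyve1- macrophages, 1 monocyte-like, 1 cDC1-like, 1 cDC2-like and 1 ungated cell, with 2, 8 and 9 of them in replicates 1, 2 and 3. Over all their UMIs they held 8 to 35 of the 36 members. That is 0 of 446 ILC2-like cells, 3 of 1056 Lyve1+ macrophages (0.284%) and 12 of 1074 Lyve1- macrophages (1.12%). The highest was a Lyve1- macrophage with Cx3cr1 in replicate 3, with UMIs for 35 of 36 members and 339 of its 10920 UMIs from them. It held 74 Ifitm3, 33 Ifit3, 25 Ifit2, 24 Bst2, 17 Isg15, 14 Trim30a, 10 Zbp1 and 9 Irf7 UMIs, lacked only Ifi44, and had 0 UMIs of Ifnb1 and of the 5 monocyte markers. A monocyte-like cell of the same library had 33 members in 391 of 8654 UMIs. Of the 19 cells, 3 had any Ifnb1 UMI.

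These few cells weighed unevenly on the members. The 15 macrophages among them held 0.739% of all macrophage UMIs but 37.3% of those of Ifit3, 32.3% of Ifit2, 20.8% of Ifit3b, 17.2% of Isg20, 16.8% each of Mx1 and Usp18, and 12.3% of Irf7. They held 12.1% of Ifit1 and 11.4% of Rsad2. Their part in other members was small, at 4.96% of Isg15, 2.74% of Oasl1, 1.83% of Ifitm3, 1.40% of Stat2 and 1.09% of Irf9 UMIs. These cells thus held a larger part of the macrophage RNA of Ifit3 and Ifit2 than of that of Oasl1 and Stat2. They were picked for showing many members, so a raised share is in part built in. The highest cell alone held 33 of their 72 Ifit3 UMIs and 25 of their 50 Ifit2 UMIs.

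Most interferon genes had no UMI: of 21 looked for, 3 had any, and the RNA came almost wholly from Ifnb1 and Ifng. Ifnb1, the gene of interferon beta, had 443 UMIs in 124 cells, 43 of them Lyve1+ and 64 Lyve1- macrophages, and none monocyte-like, cDC1-like or T or NK-like. Its level was 33.9, 23.4 and 15.1 CPM in Lyve1+ macrophages and 29.5, 51.3 and 18.1 CPM in Lyve1- macrophages of replicates 1, 2 and 3, and these ranges overlapped. All 14 Ifna genes were at 0. Ifng, the type II interferon gene, had 85 UMIs in 28 cells, of which 20 were T or NK-like, where its level was 174, 181 and 231 CPM.

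Lyve1+ macrophages, which often lie along vessels, and Lyve1- macrophages differed in single members, while their summed levels overlapped. Oasl1, Gbp7 and Rsad2 were higher in Lyve1+ macrophages, and Isg15, Ifit3, Ifih1 and Gbp3 lower. These were 7 of 34 members tested by edgeR's quasi-likelihood test with Benjamini-Hochberg adjustment, where 21.7% of all 10018 genes were called, 10.4% higher and 11.3% lower. The members' share was thus near that of all genes, and their median log2 fold change was -0.21, against 0.00 over all genes. Median depth was 5873, 5856 and 8018 UMIs in Lyve1+ macrophages of replicates 1, 2 and 3. It was 9368, 1652 and 7829 UMIs in Lyve1- macrophages. Cells were split by any Lyve1 UMI at their full depth, and the part of depth in these differences was not tested beyond the thinned profiles below.

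Oasl1, which in the mouse restrains translation of Irf7, was at 152, 302 and 157 CPM in Lyve1+ macrophages, against 50.3, 136 and 75.2 CPM in Lyve1- macrophages. It was higher in every library, by a log2 fold change of 1.08 ± 0.13 (SE, adjusted p = 0.000227 by edgeR). Gbp7, a guanylate-binding GTPase, was at 80.6, 96.2 and 80.8 CPM in Lyve1+ macrophages, against 31.1, 45.3 and 47.4 CPM in Lyve1- macrophages (log2 0.87 ± 0.14, adjusted p = 0.00137 by edgeR), and the groups did not overlap. Rsad2, the viperin gene, was at 543, 259 and 140 CPM in Lyve1+ macrophages, against 214, 160 and 111 CPM in Lyve1- macrophages. Its ranges overlapped but it was higher in each library (log2 0.65 ± 0.17, adjusted p = 0.0213 by edgeR).

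On the other side, Isg15 was at 124, 143 and 91.4 CPM in Lyve1+ macrophages, against 154, 306 and 165 CPM in Lyve1- macrophages, lower in all 3 libraries and without overlap (log2 -0.95 ± 0.15, adjusted p = 0.00110 by edgeR). Ifih1, a cytosolic sensor of long double-stranded RNA, was lower by less (log2 -0.48 ± 0.12, adjusted p = 0.0134 by edgeR), and Gbp3 was at log2 -0.65 ± 0.17 (adjusted p = 0.0198 by edgeR). Ifit3 was at 4.84, 5.24 and 11.8 CPM in Lyve1+ macrophages, against 2.39, 9.61 and 33.8 CPM in Lyve1- macrophages, higher in 1 of 3 libraries. Its call (log2 -1.32 ± 0.31, adjusted p = 0.0117 by edgeR) was lost without cells of 8 or more members (log2 -0.45, adjusted p = 0.374). Ifitm3, Bst2, Trim30a, Stat2 and Ifit1 were not called, with log2 values of -0.08, 0.01, 0.02, -0.06 and -0.28.

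**Figure D4:**
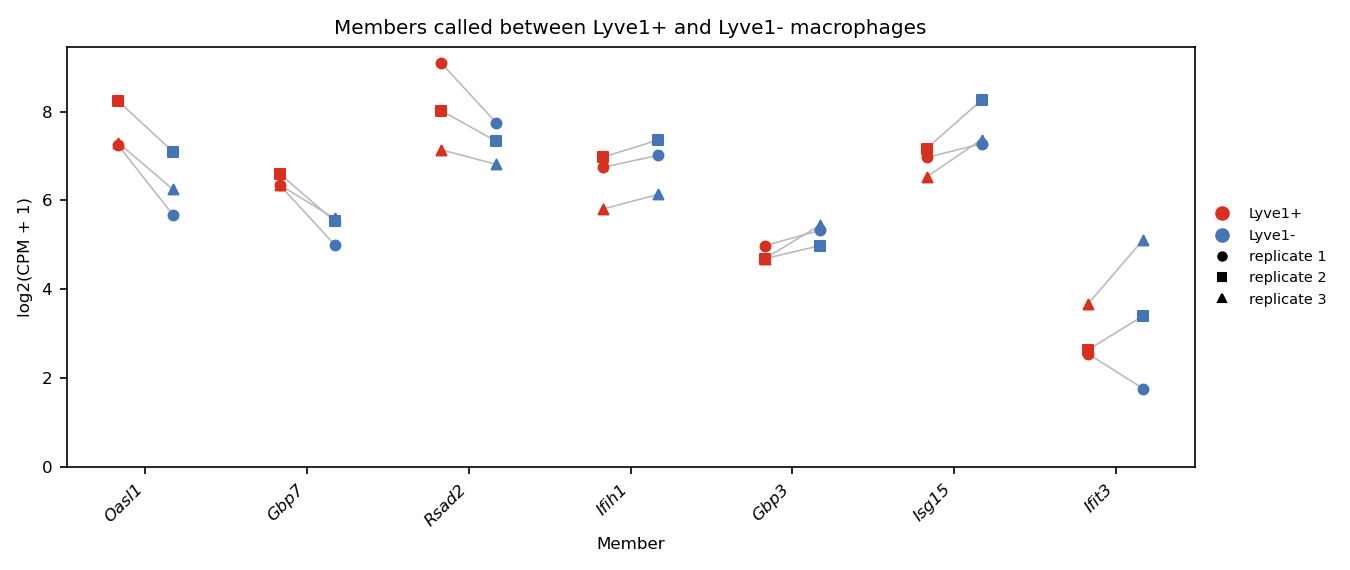
Level in log2(CPM + 1) (vertical axis) of the 7 members called between Lyve1+ (left in each pair) and Lyve1- macrophages, with 1 point per replicate and lines joining the same replicate. Oasl1, Gbp7 and Rsad2 lie higher in Lyve1+ macrophages in each replicate, Isg15, Ifih1 and Gbp3 lower, and Ifit3 crosses.

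Without replicate 2 all but Oasl1 lost their calls by edgeR while the log2 values stayed close to those above, at 0.84 for Gbp7 (adjusted p = 0.0580), 0.69 for Rsad2 (0.145), -0.76 for Isg15 (0.0578), -0.44 for Ifih1 (0.191), -0.78 for Gbp3 (0.0880) and -1.42 for Ifit3 (0.105). Without replicate 3 the calls of Ifih1 (log2 -0.46, adjusted p = 0.112), Gbp3 (-0.44, 0.345) and Ifit3 (-0.69, 0.503) were lost. In cells thinned to 1000 UMIs, Rsad2 was at log2 0.10 (adjusted p = 0.851 by edgeR), Gbp3 at -0.20 (0.852), Ifih1 at -0.33 (0.444) and Gbp7 at 0.68 (0.106), none of them called. Scaling to total UMIs shifted the median of all genes by 0.14 and left 3 members higher and 2 lower, in place of 3 and 4. Among 43 other interferon-stimulated genes tested, 5 were higher in Lyve1+ macrophages, among them Ddx60 (log2 1.82) and Ly6e (1.37), and 10 lower, among them Helz2 (-1.47), Ms4a4c (-1.45) and Slfn1 (-1.10). Of 19 GTPases and antigen-processing genes tied to interferon gamma, 4 were higher, led by the GTPase Iigp1 (2.02), and 6 lower, led by Ciita, the master regulator of MHC class II (-1.97). The fibroblast gene Dcn averaged 52.6 CPM in Lyve1+ and 13.6 CPM in Lyve1- macrophages, and its part in these differences was not tested.

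Within Lyve1- macrophages, cells with Cx3cr1 and no Ccr2 (155 cells) were set against cells with Ccr2 and no Cx3cr1 (221 cells). These receptors mark long-lived and monocyte-derived macrophages in many tissues. Bst2 was higher in Cx3cr1+ cells, and Ifit1, Ifih1 and Isg15 lower. These were 4 of 22 members tested, where 8.07% of all genes were called by edgeR, 4.47% higher and 3.6% lower. Median depth was 9044.5, 8100 and 7179.5 UMIs in Cx3cr1+ macrophages of replicates 1, 2 and 3, against 9046, 3822 and 7933 in Ccr2+ macrophages.

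Bst2 was at 342, 216 and 322 CPM in Cx3cr1+ macrophages, against 76.2, 115 and 139 CPM in Ccr2+ macrophages (log2 1.32 ± 0.24, adjusted p = 0.00259 by edgeR), with no overlap. Its call was kept without each library in turn and lost in cells thinned to 1000 UMIs (log2 0.65, adjusted p = 0.441). Ifit1 was at 68.5, 37.8 and 47.3 CPM in Cx3cr1+ macrophages, against 218, 104 and 97.7 CPM in Ccr2+ macrophages (log2 -1.36 ± 0.26, adjusted p = 0.00406 by edgeR), and its call was lost without replicate 2 (adjusted p = 0.0730). Ifih1 was at 82.2, 89.1 and 75.9 CPM in Cx3cr1+ macrophages, against 333, 169 and 122 CPM in Ccr2+ macrophages (log2 -1.12 ± 0.27, adjusted p = 0.0165 by edgeR). Isg15 was lower by log2 -0.80 ± 0.23 (adjusted p = 0.0467 by edgeR), and both Ifih1 and Isg15 lost their calls when any single library was left out. The median over the members tested was -0.14, against -0.03 over all genes. Of 30 other interferon-stimulated genes tested, Ly6e (log2 1.61) and Fgl2 (1.00) were higher and none lower.

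Monocyte-like cells (11 and 24 in replicates 1 and 2) were compared with all macrophages of those libraries, and combined more Ifitm3 with little Rsad2, Oasl1 and Ifit1. Ifitm3 and Ifi205 were higher and Rsad2, Oasl1, Ifit1 and Bst2 lower, 6 of 29 members tested, where 10.4% of all genes were called by edgeR, 4.69% higher and 5.73% lower. The members' median was -0.34, against -0.06 over all genes.

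Ifitm3 was at 1996 and 2084 CPM in monocyte-like cells, against 507 and 939 CPM in macrophages (log2 1.58 ± 0.22, adjusted p = 9.94e-07 by edgeR). Ifi205, of the family of interferon-inducible DNA-binding proteins, was at 88.7 and 105 CPM in monocyte-like cells, against 11.7 and 15.4 CPM in macrophages (log2 2.86 ± 0.44, adjusted p = 9.92e-06 by edgeR). Rsad2 was at 59.1 and 6.75 CPM in monocyte-like cells, against 323 and 212 CPM in macrophages (log2 -3.36 ± 0.43, adjusted p = 1.96e-07 by edgeR). None of these 3 overlapped. Oasl1 was at 14.8 and 27.0 CPM in monocyte-like cells, against 83.8 and 223 CPM in macrophages (log2 -2.85 ± 0.45, adjusted p = 1.25e-05 by edgeR). Ifit1 had 3 UMIs in all in monocyte-like cells, at 0 and 10.1 CPM, against 73.7 and 87.1 CPM in macrophages (log2 -3.55 ± 0.65, adjusted p = 0.000118 by edgeR). In cells thinned to 1000 UMIs Oasl1 was at log2 -3.09 and lost its call (adjusted p = 0.0724 by edgeR). The call of Bst2 (log2 -1.11 ± 0.34, adjusted p = 0.0303 by edgeR) was lost by DESeq2 (adjusted p = 0.384) and without cells of 8 or more members (0.0630).

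The direction was mixed outside the list too. Of 40 other interferon-stimulated genes tested, 8 were higher in monocyte-like cells, led by Ms4a4c (log2 3.86), Slfn1 (3.1) and Helz2 (2.20), and 4 lower, namely the chemokine genes Ccl12 (-3.12) and Cxcl10 (-1.70), Lgals3bp (-2.06) and Ifi207 (-0.96). Monocyte-like cells were also far deeper, with medians of 12685 and 13048.5 UMIs per cell, against 7243 and 3816 in macrophages of replicates 1 and 2.

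Among dendritic cells, cDC1-like cells, the type known for presenting antigen to CD8 T cells, were set against cDC2-like cells in replicates 2 and 3. Ifi205, Mx1 and Irf7 were higher in cDC1-like cells, and Ifitm3 and Oasl1 lower. These were 5 of 17 members tested, where 13.2% of all genes were called by edgeR, 5.94% higher and 7.27% lower. The members' median was 0.40, against -0.01 over all genes.

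Ifi205 was at 657 and 599 CPM in cDC1-like cells, against 39.0 and 28.5 CPM in cDC2-like cells (log2 4.23 ± 0.21, adjusted p = 1.18e-06 by edgeR), and was seen in 39.4% of cDC1-like cells, against 1.57% of cDC2-like cells, at 1000 UMIs. Ifitm3 ran the other way, at 217 and 270 CPM in cDC1-like cells, against 1325 and 1189 CPM in cDC2-like cells (log2 -2.37 ± 0.16, adjusted p = 7.01e-06 by edgeR). Mx1 was at 26.8 and 169 CPM in cDC1-like cells, against 6.32 and 19.3 CPM in cDC2-like cells (log2 2.86 ± 0.38, adjusted p = 0.000606 by edgeR). For each of these 3 genes the groups were separate. Irf7, the master regulator of type I interferon genes, was at 40.2 and 21.4 CPM in cDC1-like cells, against 3.16 and 5.09 CPM in cDC2-like cells (log2 2.84 ± 0.56, adjusted p = 0.00666 by edgeR). Oasl1 was lower (log2 -2.30 ± 0.65, adjusted p = 0.0416 by edgeR; -3.11 without cells of 8 or more members), and DESeq2 called neither Irf7 nor Oasl1. Ifit1 had no UMI in cDC1-like cells, against 40.1 and 9.16 CPM in cDC2-like cells, which is at least 6.66-fold lower with 3 UMIs over the group as the floor. That bound pools both libraries, and the cDC2-like level came mainly from replicate 2.

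Scaling to total UMIs kept 3 members higher in cDC1-like cells and made 4 lower in place of 2. Around the members, Irf8, a factor that cDC1 development needs, was higher by log2 6.19. Of 33 other interferon-stimulated genes tested, 8 were higher, among them Ifi211 (3.51), and 6 lower, among them Ifi27 (-4.56), Ms4a4c (-4.43) and Ifitm2 (-2.12). Of 13 interferon gamma GTPases and antigen-processing genes, 5 were higher, among them the immunoproteasome subunit Psmb9 (1.83), and 2 lower.

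Migratory DC-like cells (12 and 13 cells in replicates 2 and 3) were set against cDC2-like cells, and none of the 14 members tested was called by edgeR, where 1.17% of all genes were called, 0.87% higher and 0.302% lower. At an unadjusted p under 0.05 there were 4, Bst2 (log2 1.03), Gbp2 (1.60), Ifitm3 (-0.58) and Oasl1 (-1.98), and DESeq2 called 0 of 35 with 0 at an unadjusted p under 0.05. The number of cells limits this comparison.

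ILC2-like cells differed from macrophages for most members. Of 28 members tested, 18 were lower in ILC2-like cells and 2 higher, where edgeR called 54.7% of all genes, 29.1% lower and 25.5% higher. The median over the members was -1.11, against -0.02 over all genes. Rsad2, Oasl1, Ifit1, Ifih1 and Ifitm3 were among the lower members, and Isg20 and Herc6 were the higher ones.

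Rsad2 was at 4.51, 1.74 and 2.08 CPM in ILC2-like cells, against 323, 212 and 127 CPM in macrophages (log2 -6.15 ± 0.28, adjusted p = 5.11e-10 by edgeR). At 1000 UMIs per cell it was seen in 0.673% of ILC2-like cells, against 9.72% of macrophages. C1qa, used above to gauge free RNA, was seen in far more macrophages than Rsad2, and its share was not scaled to the level of Rsad2. The part of free RNA in the ILC2-like value was not tested. Oasl1 was at 3.61, 3.48 and 2.08 CPM in ILC2-like cells, against 83.8, 223 and 119 CPM in macrophages (log2 -5.27 ± 0.29). At 1000 UMIs per cell Oasl1 was seen in 0 of 446 ILC2-like cells, against 13.2% of macrophages. Ifit1 (log2 -4.71 ± 0.34), Ifih1 (-4.12 ± 0.25) and Rtp4 (-3.27 ± 0.37) were far lower as well. These sizes moved with the processing while the calls held: Ifit1 was at log2 -5.88 with doublets removed and -7.30 with a stricter gate, Rtp4 at -4.02 and Dhx58 at -2.99 without replicate 1, and, in cells thinned to 1000 UMIs, Oasl1 at -9.12, Rsad2 at -4.80 and Trim30a at -2.36. Oasl2 and Oas2, which like Oas1a belong to the oligoadenylate synthetase family, had no UMI in ILC2-like cells, at least 53.9-fold and at least 25.8-fold lower with 3 UMIs over the group as the floor, as did Ifit3 (at least 13.8-fold) and Mx1 (at least 9.37-fold).

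Ifitm3 was at 28.0, 96.5 and 114 CPM in ILC2-like cells, against 507, 939 and 971 CPM in macrophages (log2 -3.23 ± 0.23, adjusted p = 3.62e-08 by edgeR). The members with the smallest called deficits were Isg15 (log2 -0.85 ± 0.27, adjusted p = 0.0154 by edgeR), Stat2 (-0.96 ± 0.25), Irf9 (-1.06 ± 0.22) and Irf7 (-1.07 ± 0.34). Stat2 and Irf9, which act together in the factor that carries the interferon signal, were thus lower by less than Rsad2, Oasl1, Ifit1 and Ifitm3. Their deficits were near that of Isg15. Isg15 lost its call without replicate 1 (adjusted p = 0.0513) and Irf7 without replicate 2 (0.0918) or 3 (0.0715). Isg20, an exonuclease, was at 11.7, 19.1 and 17.7 CPM in ILC2-like cells, against 4.80, 5.17 and 7.77 CPM in macrophages (log2 1.70 ± 0.34, adjusted p = 0.000625 by edgeR). Herc6 was at 46.0, 58.3 and 50.9 CPM in ILC2-like cells, against 39.5, 23.3 and 30.9 CPM in macrophages (log2 0.99 ± 0.24, adjusted p = 0.00281 by edgeR), and both were higher in all 3 libraries. Gbp2, Gbp7, Ifi47, Zbp1, Xaf1, Ifi35, Ddx58 and Oas3 were tested and not called.

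Of 41 other interferon-stimulated genes tested, 26 were lower in ILC2-like cells, led by Ifi207 (log2 -6.59) and Phf11d (-5.66), and 7 higher, led by Ly6a (7.22) and Tnfsf10 (4.57). The interferon gamma list ran the other way, with 9 of 20 higher, led by Gbp4 (4.04) and Gbp8 (3.94), and 4 lower, led by Ciita (-6.94). Of 15 nucleic acid sensors and adaptors, 9 were lower, led by Tlr7 (-5.30) and Tlr8 (-5.22), and Samhd1 was higher. Of 11 receptors and kinases, 3 were higher, the feedback inhibitor Socs1 (4.22), Jak2 (2.03) and Jak1 (0.70), and 5 lower.

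Between the lymphoid classes, 2 of 13 members tested were called by edgeR in T or NK-like over ILC2-like cells, where 10% of all genes were called, 3.93% higher and 6.07% lower. Ifi47 was at 87.0, 93.7 and 89.7 CPM in T or NK-like cells, against 21.7, 23.5 and 42.6 CPM in ILC2-like cells, without overlap (log2 1.5 ± 0.35, adjusted p = 0.0188 by edgeR). Ifitm3 was at 29.0, 20.1 and 12.8 CPM in T or NK-like cells, against 28.0, 96.5 and 114 CPM in ILC2-like cells, and was higher in 1 of 3 libraries (log2 -1.93 ± 0.53, adjusted p = 0.0410 by edgeR). DESeq2 called neither gene (0 of 33, with 3 at an unadjusted p under 0.05). By edgeR, Ifi47 lost its call without replicate 1 (adjusted p = 0.0878) or replicate 2 (0.261). Ifitm3 lost its call without replicate 2 (0.371), without replicate 3 (0.121) and with the stricter gate (0.179), and was at log2 -2.79 without replicate 1. Of 16 interferon gamma genes tested, the GTPase Igtp (log2 2.39) was the 1 called, and of 25 other interferon-stimulated genes, 3 were higher and 2 lower. Ifng itself was higher by log2 8.33.

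To see what went with the programme inside the macrophage class, macrophages with 4 or more members in 1000 UMIs (293 cells) were set against those with at most 1 (952 cells). The split was made on the members, so their own values (31 of 32 tested higher, where 2.52% of all genes were called by edgeR, 2.23% higher and 0.293% lower) carry no test and are given as a description. Their summed level was 6112, 5412 and 6519 CPM in cells with many members, against 1494, 1645 and 1610 CPM in cells with few. The split was largest for Ifit3 (62.5 ± 64.4 CPM, against 1.10 ± 1.02 CPM) and smallest in Ifitm3 and Ifi35 among those called (SD, n = 3 each).

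Outside the list, 167 of 7826 genes were called, 144 higher and 23 lower in cells with many members, and interferon genes stood among them. Of 38 other interferon-stimulated genes tested, 31 were higher and none lower, among them Ifi213 (log2 2.43), Slfn1 (2.22), Phf11d (1.81) and Cxcl10 (1.42). Of 19 interferon gamma genes, 5 were higher, the GTPases Iigp1 (2.43), Gbp5 (2.26), Irgm1 (2.02) and Irgm2 (1.66), and H2-K1 (0.46), the class I MHC chain. The kinase gene Eif2ak2 was higher by log2 1.40 and Samhd1 by 0.83. Ifnb1 averaged 92.5 CPM in cells with many members, against 9.07 CPM in cells with few (log2 3.33 ± 0.24). The number of genes called rested on replicate 2: it was 16 without replicate 2, and 357 and 96 without replicates 1 and 3, and 81 by DESeq2. Median depth was 5232, 1830.5 and 8800 UMIs in cells with many members, against 8008, 6104 and 7307.5 in cells with few, in replicates 1, 2 and 3.

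Ifnb1 was then used to divide macrophages, a comparison added after its level above had been seen. Macrophages with an Ifnb1 UMI (74 and 25 cells in replicates 2 and 3) had higher Ifit1, Rsad2, Ifit2, Oas3, Ifit3, Isg15, Ifih1, Oasl1 and Oasl2 than macrophages without one. These were 9 of 35 members tested, all higher, where 1.63% of all genes were called by edgeR, 1.35% higher and 0.284% lower. The members' median was 0.50, against -0.05 over all genes. The other members tested, among them Mx1, Irf7, Usp18, Bst2, Trim30a and Ifitm3, were not called.

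Ifit1 was at 364 and 386 CPM in macrophages with an Ifnb1 UMI, against 61.3 and 19.4 CPM in those without (log2 3.54 ± 0.26, adjusted p = 1.81e-22 by edgeR). Rsad2 was at 667 and 1032 CPM in macrophages with an Ifnb1 UMI, against 169 and 89.7 CPM in those without (log2 2.91 ± 0.23, adjusted p = 1.52e-20 by edgeR). Isg15 was at 421 and 555 CPM in macrophages with an Ifnb1 UMI, against 202 and 108 CPM in those without (log2 1.86 ± 0.23, adjusted p = 4.11e-10 by edgeR). For each of these 3 the groups did not overlap. The p-values rest on 2 libraries, with the variance of each gene drawn in part from that of all genes. Without the replicate block edgeR called none of these 3 (adjusted p = 0.192 for Ifit1, 0.136 for Rsad2 and 0.413 for Isg15). Ifih1 (log2 1.77 ± 0.24) and Oasl1 (1.72 ± 0.26) were higher too, and so was Ifit2 (2.82 ± 0.48), from 32 UMIs in cells with Ifnb1. Ifit3 (adjusted p = 0.103), Oas3 (0.122) and Oasl2 (0.101) lost their calls in edgeR scaled to total UMIs, which shifted the median of all genes by -0.21.

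Rtp4, at log2 0.94, just missed the threshold. Mx1 was at log2 0.32, Irf7 at 0.23, Usp18 at 0.20, Ifitm3 at 0.18, Bst2 at 0.03 and Trim30a at -0.38 in macrophages with Ifnb1 over those without. Of 45 other interferon-stimulated genes tested, 6 were higher, led by the chemokine genes Cxcl9 (3.88) and Cxcl10 (2.19), with Ms4a4c (1.41), Slfn2 (1.02), Ifi204 (1.00) and Ifi207 (0.87). Gbp5 (1.64) was the 1 gene called of 22 on the interferon gamma list. Cells with an Ifnb1 UMI were deeper, at medians of 6227.5 and 9675 UMIs, against 3653.5 and 7878 in cells without. In profiles thinned to 1000 UMIs per cell, Ifit1 (log2 2.42), Rsad2 (2.54) and Ifih1 (1.69) were called by edgeR. Isg15 (1.11, adjusted p = 0.9), Oasl1 (1.20, 0.591), Ifit2 (3.18, 0.160), Ifit3 (1.47, 1) and Oasl2 (0.14, 1) were not called by edgeR in them.

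**Figure D5:**
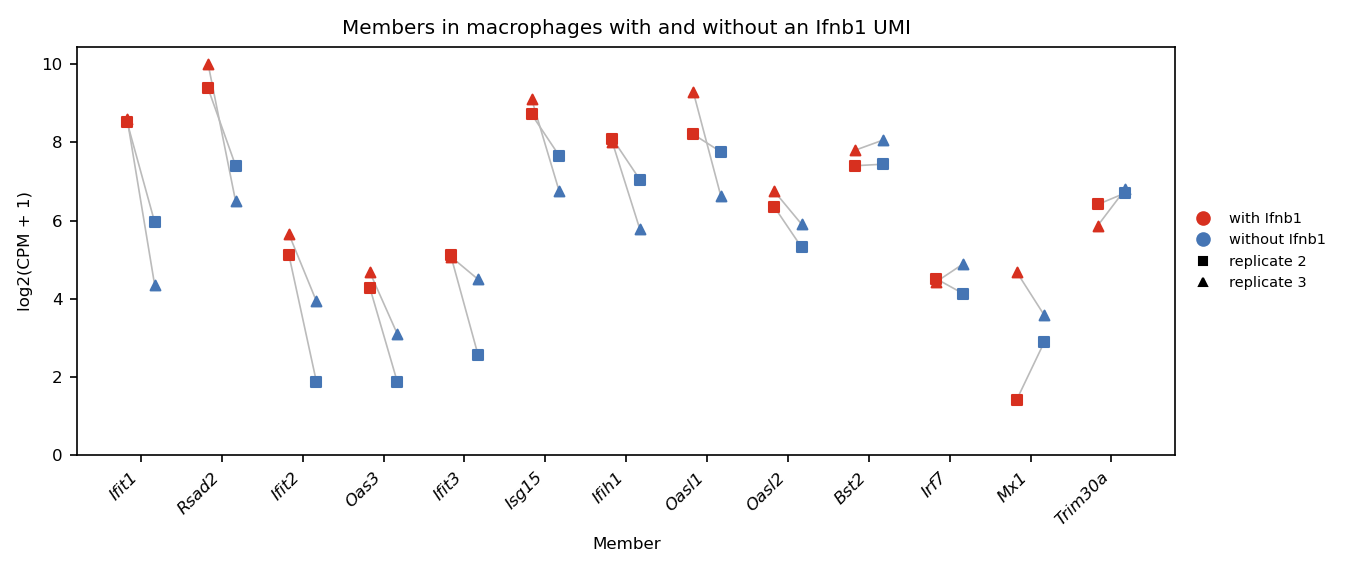
Level in log2(CPM + 1) (vertical axis) of 13 members in macrophages with an Ifnb1 UMI (left in each pair) and without one, with 1 point for replicate 2 and 1 for replicate 3. The first 9 members, which were called, lie higher with Ifnb1 in both replicates, and the last 4, Bst2, Irf7, Mx1 and Trim30a, were not called.

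Macrophages with Ifnb1 (107 cells over 3 libraries, 8 of them in replicate 1) were also set against the other 2023 by the share of cells showing a gene at 1000 UMIs. Of 28 members seen in at least 1% of macrophages, 7 were seen more often with Ifnb1 in every library, where 6.1% of all 7689 such genes were. Ifih1 was seen in 31.8% of cells with Ifnb1, against 9.79% of cells without, Isg15 in 28.0%, against 12.0%, Rsad2 in 25.2%, against 8.90%, and Ifit1 in 17.8%, against 3.76%. Trim30a was seen in 2.80% of cells with Ifnb1, against 10.0% of cells without, and Mx1 in 0, against 1.14%. A second split took the 125 macrophages with an Ifit UMI against the 2005 without. Of 26 other members seen in at least 1% of macrophages, 10 were seen more often with an Ifit UMI in every library, where 7.28% of all 7688 such genes were, among them Isg15 (27.2%, against 11.9%), Rsad2 (27.2%, against 8.63%), Oasl1 (27.2%, against 12.3%), Ifih1 (24.8%, against 10.0%) and Ifi47 (12.0%, against 2.34%).

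Over 25 profiles of library and class, the summed level tracked Ifitm3 most among the members, with a Pearson r of 0.88, then Oasl2 (0.80) and Ifih1 (0.79). Each member is part of that sum, and Ifitm3 the main part, so these values are in part built in. Among the 5792 other genes compared, Dbi, which binds acyl-CoA esters, and Hexa, a lysosomal enzyme gene, were nearest (r of 0.89 each), followed by Cebpa (0.88), Myof (0.87), and Asah1, Anxa5, Rraga and Scpep1 (0.86 each). Profiles of 1 library share its depth and free RNA, and these values are a description without a test.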

How the data were processed

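Droplet RNA-seq counts were read from the 3 libraries. The authors deposited raw UMI counts per gene and barcode, which the submitters' processing notes credit to Cell Ranger 3.1 and mm10. The version written per the file headers is 3.0.0 in replicate 1 but 3.1.0 in the other replicates. Cell filters are given above. A class needed at least 3 detected markers and a lead of 1 marker; monocyte-like cells needed 2 of 5 markers; 316 cells stayed ungated. Doublets were removed in an alternative only (Scrublet in scanpy 1.11.5, the highest 0.8% per 1000 barcodes). Counts were summed per library and class (at least 10 cells and 2 libraries) and tested with edgeR 4.0.16 (quasi-likelihood, TMM, filterByExpr, library as a block since all classes of a library come from the same sample; Benjamini-Hochberg over all genes, threshold 0.05). DESeq2 1.42.0 was the alternative. Summed-level and share intervals are exact 95% and cover counting error only; levels are 3′ UMIs and are not compared per length between genes. Python 3.11.15 and R 4.3.3 were used. The edgeR tests were also run on counts simulated with the same spread for every gene. That setting is simpler than these profiles and gives no error rate for them.

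The members and all lists were chosen with earlier results of these data known. Any member may be named, as may called genes of the other interferon lists, those of highest fold first, and the 8 genes most correlated with the summed level among those of at least 20 CPM in mean. Oas1b, of another list, was not analysed here, and 1 gene of another list is not reported here.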

Additional observations from a re-analysis of the deposited data

How the results depend on the processing

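No called member changed direction under any alternative run. Without Ifitm3 the order of class means changed. Monocyte-like cells were then at 1467 CPM, against 1709 CPM in macrophages (3507 and 2515 CPM with it). The cDC1-like cells were at 1527 CPM, against 866 CPM in cDC2-like cells (1771 and 1935 CPM with it). These means cover 2 libraries for monocyte-like and cDC1-like cells and 3 for the other classes. Monocyte-like cells fell below macrophages in replicate 2 and not in replicate 1. With Ifitm3 counted, cDC2-like cells had led cDC1-like cells in replicate 2 and not in replicate 3. Of single-gene values, 1108 of 1328 stayed on their side of the threshold and 220 lost their call. The number of members called was 7 for Lyve1+ over Lyve1- macrophages, 4 for Cx3cr1+ over Ccr2+, 6 for monocyte-like cells over macrophages, 5 for cDC1-like over cDC2-like, 20 for ILC2-like cells over macrophages, 2 for T or NK-like over ILC2-like, and 9 for macrophages with Ifnb1 over those without. In that order, DESeq2 gave 4, 1, no change beyond 1.5 times, 3, no such change, 0 and no such change. Where it gave no such change, DESeq2 still ended the calls of Bst2 for monocyte-like cells and Irf7 for ILC2-like cells. In the Ifnb1 comparison it ended those of Ifit3 and Oasl2 and gave no adjusted p for Oas3. Profiles of cells thinned to 1000 UMIs gave 2, 0, 3, 2, 8, 0 and 3. Without the replicate block the numbers were 0, 2, 3, 3, unchanged within 1.5 times, 1 and 0, and edgeR had 5 members at an unadjusted p under 0.05 in the Lyve1 comparison and 11 in the Ifnb1 comparison. Without the filter on low counts there were 9 for Cx3cr1+ over Ccr2+ and 15 for cDC1-like over cDC2-like. The cDC1-like comparison gave 8 with doublets removed, 9 with shared barcodes removed and 3 with a stricter gate, and the T or NK-like comparison gave 1 with that gate. Leaving out 1 replicate gave 2 to 10 members for Lyve1+, 2 to 2 for Cx3cr1+ and 0 to 1 for T or NK-like. For macrophages with many over few members, 167 other genes became 81 by DESeq2, 30 with thinned cells, 12 without the replicate block and 16 to 357 with 1 replicate left out. The share of macrophages with 4 or more members, 12.3%, became 26.2% at 3 or more, 3.12% at 6 or more and 30.9% when thinned to 2000 UMIs. The cause of these changes was not tested, apart from the fewer UMIs of thinned profiles, in which 0 members of the T or NK-like and 3 of the Cx3cr1+ comparison could be tested.

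Migratory DC-like cells, T or NK-like cells and monocyte-like cells are few, and replicate 1 has too few dendritic cells of 2 classes to be used. Comparisons with 2 libraries could not be refitted with 1 left out. No fit with the stricter gate could be had for monocyte-like and migratory DC-like cells.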

Other observations

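Isg15 was highest in mast-like cells, at 303, 1097 and 329 CPM in replicates 1, 2 and 3, of which replicate 1 had 8 cells. It was seen in 14 of 46 mast-like cells (30.4%) at 1000 UMIs, and no comparison above includes that class.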
